A study of Drosophila melanogaster with 6 samples.

Results

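The domains described here are the 263 regions of at least 20 kb that the authors called as enriched for ubiquitylated histone H2B (H2Bub), out of 4300 regions on the same stretches of 2L, 3L, 3R and X and 5802 in the authors' whole list. Chromatin came from wild-type *Drosophila melanogaster* embryos of the strain Oregon-R, aged 14 to 16 h, and was immunoprecipitated with the antibody NRO3. There were 3 ChIP samples, each with an input of the same number, and the labels give no treatment, transgene or other genotype. The authors deposited a list of regions per ChIP replicate, and another for the series as a whole that is called the combined list here. Domains were chosen by their width in the combined list and had to lie wholly outside the 2 Mb of each arm nearest the centromere. Other arms, 2R among them, are not described, and autosomal arms here means 2L, 3L and 3R. Their widths, and the share of the genome that follows from them, are therefore descriptions. The embryos were whole, so these regions are averages over all cell types present, and the labels do not say whether replicates are separate collections.

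Ubiquitin is attached to H2B by the ligase Bre1, which travels with elongating RNA polymerase II, and is taken off again by deubiquitylases such as the one carried by the SAGA complex. In yeast and in mammalian cells the mark lies over the bodies of transcribed genes rather than at their starts, and it is known to promote methylation of histone H3 and the passage of the polymerase through nucleosomes. A wide H2Bub region can thus hold a long transcribed gene or a run of neighbouring ones. Positions follow FlyBase release 5, which the file headers name. No gene annotation of that release was used here, and the regions are named by position only.

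The broad domains were few but held much of the marked sequence. They made up 6.12% of the 4300 regions, 33.5% of the bases in regions and 10.7% of the 89.9 Mb analysed. The 1329 regions of 5 to 20 kb held 43.0% of the bases in regions, and the 2708 narrower ones 23.5%. Domain widths ran from 20055 bp to 122703 bp with a median of 29760 bp and quartiles of 23140.5 and 43200.5 bp. Of the 263, 127 were at least 30 kb, 41 at least 50 kb and 6 at least 100 kb wide. Just inside it lay 3L from 15548998 (20055 bp, score 1.19), 3L from 14206135 (20056 bp, 1.43) and 2L from 11217920 (20076 bp, 0.83). Just outside lay 3R from 6137829 (19973 bp, 1.01), 2L from 231490 (19968 bp, 1.05) and 2L from 17200123 (19896 bp, 0.53).

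Each region carries a deposited score, which no source used here defines and which was compared within a list only. Domain scores in the combined list ran from 0.56 to 2.77 with a median of 1.38, against a median of 0.91 for regions of 5 to 20 kb and 0.43 for narrower ones. The median domain stood at the 91.8th percentile of all 4300 scores, and 1 domain scored below their median. Because width and score rise together over all regions (Spearman's rho 0.81 across 4300 regions), this follows in part from the choice by width. Among the 263 domains themselves, width said little about score, with a rho of 0.17. The choice by width narrows the range of widths, which by itself can lower this rho. Neither rho has a p, since regions of 1 list are not independent replicates.

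**Figure D1:**
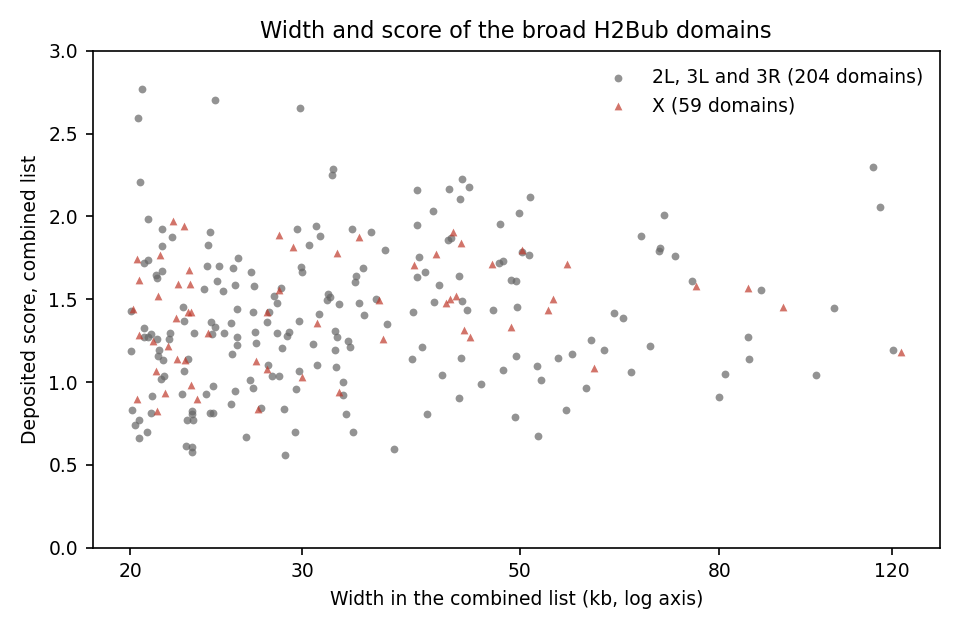
Width in the combined list (kb, log axis) against deposited score for the 263 domains, with X domains as triangles and those of 2L, 3L and 3R as circles. Both the lowest score, 0.56, and the highest, 2.77, belong to domains under 30 kb, while the 6 domains of at least 100 kb score between 1.04 and 2.30.

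The 5 highest-scoring domains ranged in width from 20390 to 114792 bp. The highest score, 2.77, belonged to 3R from 5166701 to 5187295, a domain of 20595 bp. Next came 3L from 18740085 to 18764510 (24426 bp, 2.71), 2L from 1650258 to 1680074 (29817 bp, 2.66), 2L from 14390021 to 14410410 (20390 bp, 2.59) and 3L from 22286910 to 22401701 (114792 bp, 2.30). In replicates 1, 2 and 3 the domain at 5166701 scored 2.46, 3.00 and 2.50 and was 1 region each time. The 3L domain at 18740085 was the exception among these 5, since it was cut into 2, 3 and 3 regions and covered over 91.1%, 93.2% and 75.1% of its bases.

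Scores ranked the domains alike in the 3 replicates. Averaged over the bases of a domain that each replicate list covered, scores had a median of 1.17, 1.59 and 1.33 in replicates 1, 2 and 3. Spearman's rho across the 263 domains was 0.974 between replicates 1 and 2, 0.904 between 1 and 3 and 0.921 between 2 and 3. These are descriptions across regions of 1 genome, and the lists share the authors' processing.

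Every domain was called, at least in part, in every replicate. All 263 were overlapped by a region of each replicate list, which is 100% against 62.7% of all 4300 regions. A 1 bp overlap is easier for a wide region to meet, so this share was fixed in part by the width rule. Coverage of the domains' bases is the stricter measure. It is not free of the width rule either, since the same edge offset takes a smaller share of a wider region. Replicates 1, 2 and 3 covered 92.8%, 98.2% and 96.0% of them, with a mean of 95.7% ± 2.73 (SD, n = 3). The regions of 5 to 20 kb were covered over 80.2%, 93.0% and 84.7%. The difference averaged 9.73 ± 3.96 percentage points (SD, n = 3; 12.6, 5.21 and 11.4 by replicate), in favour of the domains in 3 of 3 replicates. Flipping the signs of the 3 replicate differences in every way (an exact permutation test, two-sided) gave p = 0.25, the lowest that 3 replicates allow, so no such test here could reach 0.05.

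No source used here names the libraries behind the combined list, so the replicate lists may share reads with it. Domains were therefore also chosen in 1 replicate list and measured in the other two. Replicates 1, 2 and 3 held 185, 231 and 210 regions of at least 20 kb by the same position rule, and 97.8% ± 1.23 of the bases of such regions were covered in the other replicates (SD over the 3 choices, n = 3). For regions of 5 to 20 kb chosen in the same way the share was 92.0% ± 4.49 (SD, n = 3). The difference of 5.85 ± 3.27 points (SD, n = 3) was positive for all 3 choices (exact permutation p = 0.25). Each replicate list enters all 3 choices, so they are not independent, and neither SD nor p measures a spread between separate replicates. The classes still differed in width, so the part set by the width rule remains in this difference.

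Coverage varied widely among the domains at its low end. Coverage of the median domain was 96.2%, 99.1% and 97.7% by replicate, and 177 domains (67.3%, against 20% of all 4300 regions) were covered over at least 90% in every replicate. Of the 4300 regions, 2708 were under 5 kb, where an edge offset takes a larger share. That contrast therefore follows in part from the width rule. In replicate 1, 25 domains were covered over less than 80%, against 0 in replicate 2 and 9 in replicate 3. The least covered was 3R from 26120714 to 26143834, with 30.6%, 89.0% and 43.9%. Then followed 2L from 17240637 to 17261072 with 40.4%, 84.6% and 73.9%, and 2L from 12221413 to 12244219 with 36.1%, 86.0% and 78.2%. The domain at 27725527 on 3R had 32.1%, 93.8% and 78.5%, and that at 21872383 on 3L 35.6%, 96.8% and 96.3%. In all 5, replicate 1 was the lowest and replicate 2 the highest.

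The 5 least covered domains all had low scores. The 5 lowest-scoring domains were those at 27725527 on 3R (0.56), 656372 on 2L (0.58), 21872383 on 3L (0.60), 26120714 on 3R (0.61) and 12221413 on 2L (0.61), and 4 of them were also among the 5 least covered. The fifth least covered, at 17240637 on 2L, scored 0.66. The 2L domain at 656372, 23126 bp wide, was covered over 60.2%, 91.2% and 93.3%. A higher score did not exclude low coverage, as the 3L domain at 19135196 (1.87) was covered over 73.0%, 89.2% and 92.9%.

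A replicate list often gave a domain as several regions. Of the 263 domains, 116, 187 and 139 were overlapped by 1 region in replicates 1, 2 and 3, a mean of 147.3 ± 36.2 (SD, n = 3). A domain was overlapped by 2.35, 1.45 and 1.76 regions on average in replicates 1, 2 and 3, with a mean of 1.85 ± 0.454 (SD, n = 3). Replicate 1 split 49 domains into 4 regions or more, against 8 in replicate 2 and 16 in replicate 3, and its most divided domain held 16 regions.

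The division was partly shared between replicates. In total, 92 domains (35.0%, against 42.8% of all 4300 regions) were overlapped by exactly 1 region in every replicate, and 60 (22.8%, against 3.67%) by more than 1 in every replicate. Wider regions have more room to be split, so neither share sets the domains apart from narrower regions. Of the other 111, replicate 1 alone split 32, replicate 2 alone 2 and replicate 3 alone 21. Pieces were usually unequal. In a split domain the longest piece held a median of 63.6%, 75.8% and 72.2% of its width in replicates 1, 2 and 3. A piece of at least 20 kb remained in 178, 223 and 202 domains, and in every replicate in 162 of the 263.

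The widest domains ranged from unbroken to highly divided. Both the 3R domain from 5699516 to 5816222 (116707 bp) and the 3L domain from 22286910 to 22401701 were 1 region in each replicate, and the longest piece of the former measured 116.1, 116.5 and 115.6 kb. The widest of all, X from 4997151 to 5119853, was 9, 4 and 7 regions, with longest pieces of 39.3, 61.5 and 60.6 kb. The 3R domain from 21178883 to 21299214 was 4, 4 and 3 regions, of which the longest measured 87.3, 87.0 and 87.6 kb. The 3R domain from 6336034 to 6440754 (104721 bp) was the most divided, into 16, 7 and 3 regions. Replicate 1 covered 72.2% of that domain, while replicates 2 and 3 covered 97.5% and 96.5%.

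**Figure D2:**
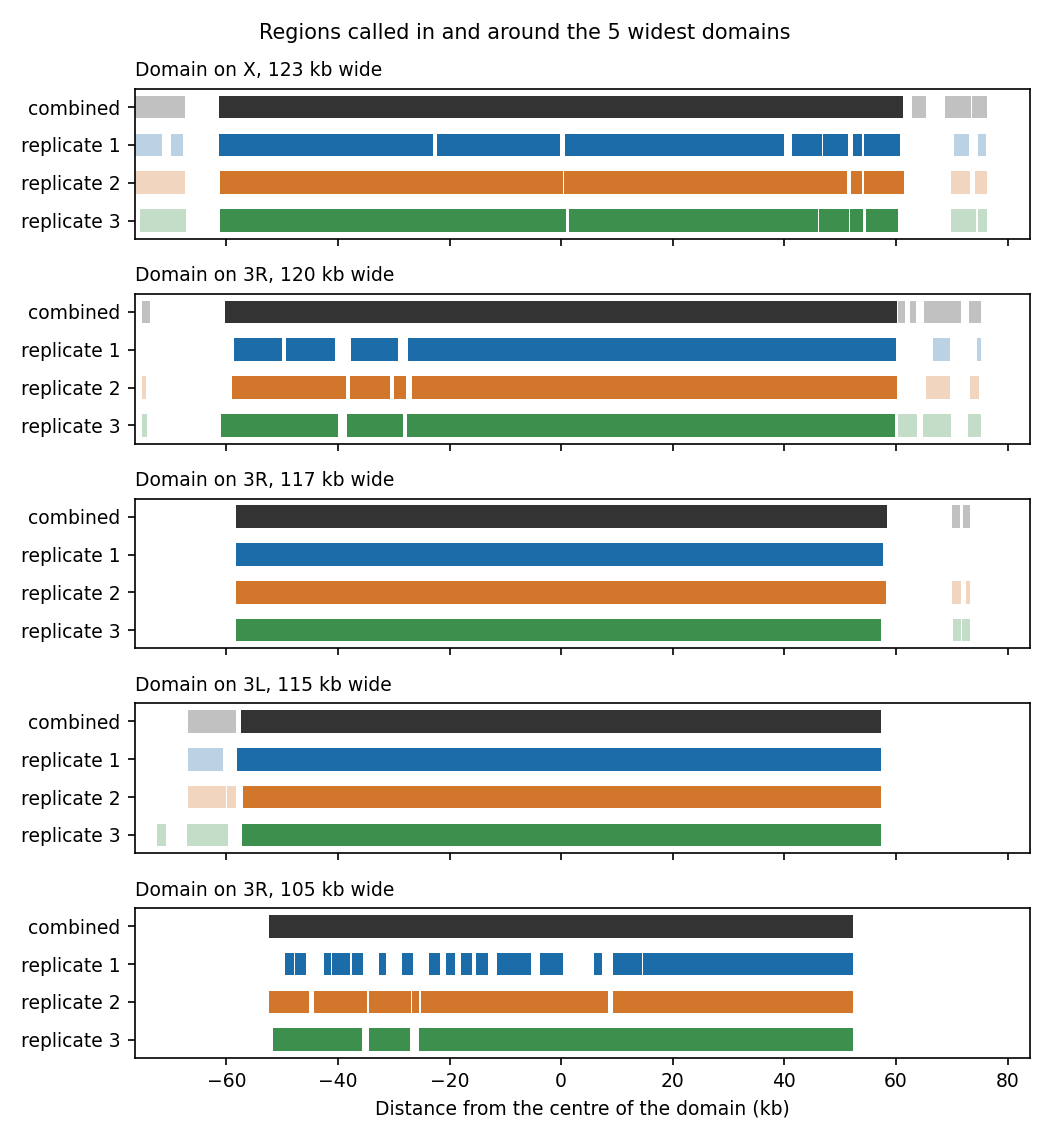
Regions of the combined list and of the 3 replicate lists in and around the 5 widest domains, drawn by distance from the domain's centre (kb), with paler bars for regions that do not overlap the domain. The domains of 117 kb on 3R and 115 kb on 3L are unbroken in every list, while the 105 kb domain on 3R is 16 regions in replicate 1 and 3 in replicate 3.

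Unbroken domains were found well beyond these. After the 117 kb and 115 kb domains, the widest that were 1 region in every replicate lay on X from 19246686 to 19332193 (85508 bp), on X from 14733605 to 14809266 (75662 bp) and on 2L from 18319350 to 18389631 (70282 bp). Each was covered over at least 97.5% in every replicate. Besides the domains at 6336034 on 3R and 4997151 on X, the most pieces over the 3 replicates were found in 3 others and in the 43333 bp domain on 2L from 11581515 (8, 2 and 5 regions), which tied with the last. The 52245 bp domain on 3L from 14308963 was 13, 3 and 6 regions, a total of 22 against 26 at 6336034 and 20 at 4997151. The 59538 bp domain on X from 970006 was 7, 5 and 4, and the 100406 bp domain on 3R from 17958981 was 10, 3 and 2.

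The breaks between pieces were narrow. Replicates 1, 2 and 3 had 354, 119 and 201 breaks inside the domains, with median widths of 674, 282 and 510 bp. Breaks under 1000 bp were 61.9%, 84.9% and 66.7% of these, and some adjoining regions had 0 bp between them. Together the breaks took up 4.11%, 0.628% and 1.86% of the domains' bases.

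Some breaks fell at the same place in more than 1 replicate. Overlapping breaks were joined into 479 sites in 171 domains, of which 349 (72.9%) were broken in 1 replicate, 85 (17.7%) in 2 and 45 (9.39%) in all 3. Of the 349, 224 belonged to replicate 1. Of the breaks of replicate 2, 55.5% met a break of replicate 1 and 37.8% one of replicate 3. Of those of replicate 1, 18.4% met a break of replicate 2 and 29.1% one of replicate 3. Sites broken in all 3 replicates had a median mean width of 1187 bp, against 376 bp for sites broken in 1, and wider breaks meet each other more easily.

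Shared sites included several in the widest domains. In the widest domain on X, the 3 replicates broke at 5109672 to 5110847 and again at 5112366 to 5113174, both close to its right end. In the 120 kb domain on 3R they broke at 21198593 to 21201310 and at 21209761 to 21212251, which set off the left part of the domain from the long piece. In the 105 kb domain on 3R the shared sites lay at 6352744 to 6355742 and 6361298 to 6364645. All 3 domains were also broken at other places in fewer replicates.

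Domains with lower scores were broken more often. The 263 domains were divided by combined score into 3 groups, the low (88 domains, 0.56 to 1.19), middle (87, 1.21 to 1.58) and high (88, 1.58 to 2.77) score groups. The low group had 0.754, 0.225 and 0.342 breaks per 10 kb in replicates 1, 2 and 3, and the high group 0.0845, 0.0392 and 0.112. The difference was positive in 3 of 3 replicates, at a mean of 0.362 ± 0.267 breaks per 10 kb (SD, n = 3, exact permutation p = 0.25), and at 0.208 without replicate 1. In the low group 2 domains were 1 region in every replicate, against 32 in the middle and 58 in the high group. Median widths of the groups were 27418, 29075 and 33837 bp. This comparison was chosen after the values were seen.

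The same order held when score and breaks came from different lists. With groups made from the score in 1 replicate and breaks counted in the other two, the low group had 0.431 ± 0.144 and the high group 0.0804 ± 0.0205 breaks per 10 kb (SD, n = 3). The difference was 0.351 ± 0.138 (SD, n = 3) and positive for all 3 choices (exact permutation p = 0.25). Here too each list enters all 3 choices, so SD and p do not measure a spread between separate replicates. Across the 263 domains, Spearman's rho between the score in 1 replicate and the pieces in another lay between -0.663, for the score of replicate 2 and the pieces of replicate 1, and -0.323, for the score of replicate 1 and the pieces of replicate 3. The part that read depth has in this was not tested, since the lists give no counts.

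**Figure D3:**
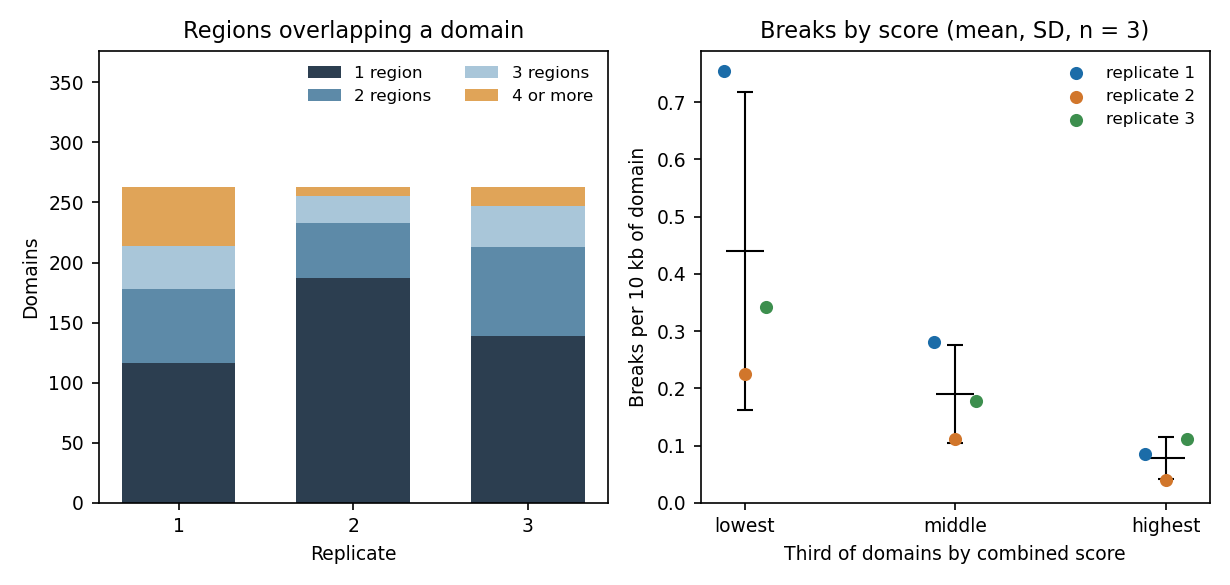
Left, number of the 263 domains overlapped by 1, 2, 3 or at least 4 regions in each replicate. Right, breaks per 10 kb of domain in each score group (low, middle, high), with points for replicates and bars for mean and SD (n = 3). Replicate 1 has the fewest domains that are 1 region, 116, and the most breaks in the low group, 0.754 per 10 kb.

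Most domain edges lay close together in the 3 replicates. For each of the 526 edges of the 263 domains, the outermost edge of the overlapping replicate regions was compared with the combined edge. The median absolute distance was 165.5, 79 and 249.5 bp in replicates 1, 2 and 3, a mean of 164.7 ± 85.3 bp (SD, n = 3). Within 500 bp lay 73.6%, 88.8% and 73.6% of edges. The 3 replicate positions of an edge spanned a median of 336.5 bp, with quartiles of 172.5 and 933.75 bp. All 3 replicates were within 500 bp of the combined edge at 313 of the 526 edges (59.5%), and 94 domains met this at both ends.

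The distance between replicate and combined edges did not follow width in 1 direction. Regions of 5 to 20 kb had median absolute distances of 217, 95 and 260 bp, and the difference, domains minus 5 to 20 kb, was -51.5, -16 and -10.5 bp. Its mean was -26.0 ± 22.3 bp (SD, n = 3), below 0 in 3 of 3 replicates (exact permutation p = 0.25), and -13.2 bp without replicate 1. Regions under 5 kb had 165, 93 and 184 bp where they were called, a mean of 147.3 ± 48.0 bp (SD, n = 3). That mean was below the 164.7 bp of the domains, but the order was not shared by all replicates. Against the domains, these regions were nearly equal in replicate 1, higher in replicate 2 and lower in replicate 3. In each replicate the regions of 5 to 20 kb had the largest distance.

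Replicate regions mostly stopped inside the combined domain. The outermost replicate edge lay inside at 93.2%, 79.5% and 78.5% of edges, by a median over all edges of 164, 69 and 175 bp. Left and right edges had median inward distances of 124.7 ± 58.0 and 152.7 ± 67.4 bp (SD, n = 3). Replicate 2 reached farthest out at 280 of the 526 edges and replicate 3 at 151. Larger departures were rare. Edges more than 5 kb inside numbered 4, 0 and 2 in replicates 1, 2 and 3, and those more than 5 kb outside 0, 1 and 5.

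**Figure D4:**
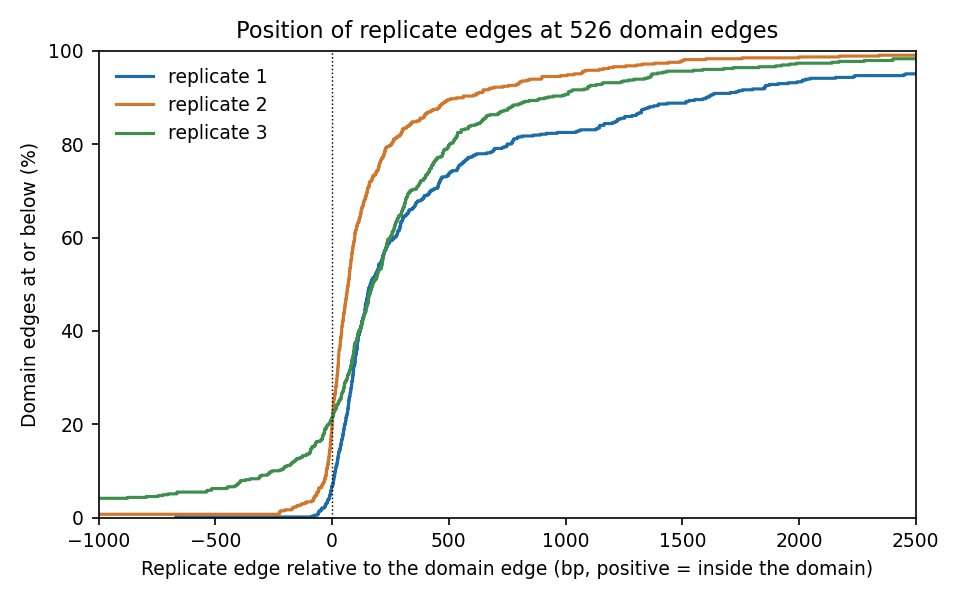
Cumulative share (%) of the 526 domain edges by position of the outermost replicate edge (bp), with values above 0 inside the domain. Inside the domain lie 93.2%, 79.5% and 78.5% of edges, and the most edges outside it, 112, are those of replicate 3 (edges far out on either side are beyond the axis).

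Where a neighbouring region lay close, a replicate sometimes joined it to the domain. A replicate region ran on into the next combined region at 0, 4 and 15 edges in replicates 1, 2 and 3. This touched 16 domains. At the 112 domain edges with a gap under 1 kb to the next combined region, the median absolute distance was 212.8 ± 81.4 bp, and at the 260 edges with 5 kb or more it was 156.8 ± 98.6 bp (SD, n = 3). The difference was 112.5, 52.5 and 3 bp in replicates 1, 2 and 3, a mean of 56.0 ± 54.8 bp (SD, n = 3), above 0 in 3 of 3 (exact permutation p = 0.25). Without replicate 1 it was 27.8 bp.

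Most domains had another, usually narrower, region nearby. The nearest combined region was a median of 1609 bp away, with quartiles of 498 and 5124 bp. It was under 1 kb away for 99 of the 263 domains (37.6%, against 41.7% of regions of 5 to 20 kb) and over 10 kb away for 30. Within the replicate lists, regions of at least 20 kb had a median distance to the nearest region of 1472, 1533 and 1386 bp in replicates 1, 2 and 3, and regions of 5 to 20 kb 1518, 1697 and 1374 bp. The difference was -66.0 ± 89.7 bp (SD, n = 3), below 0 in 2 of 3 replicates (exact permutation p = 0.5), and -17 bp without replicate 2. Its direction turned under 4 other settings. No difference in spacing from regions of 5 to 20 kb was therefore shown.

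The wider surroundings were slightly fuller around domains. Replicate regions covered 29.0%, 33.4% and 32.9% of the 50 kb on either side of the domains in replicates 1, 2 and 3, and 27.6%, 32.5% and 31.5% around regions of 5 to 20 kb. The difference of 1.24 ± 0.265 percentage points (SD, n = 3) was positive in 3 of 3 replicates (exact permutation p = 0.25). It was chosen after the data were seen.

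Domains lay a median of 202.0 kb apart, over a very wide range. The 259 distances between neighbouring domains on the same arm had a mean of 302.9 kb, a standard deviation of 333.9 kb and quartiles of 63.1 and 454 kb. Of these pairs, 8 were under 1 kb apart, 26 under 10 kb and 54 under 50 kb, while 14 were over 1 Mb apart. No other combined region lay between the domains of 28 pairs. Linked at distances under 10 kb, the domains formed 212 that stood alone, 24 pairs and 1 run of 3.

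The closest pairs were nearly continuous. On 2L, the domains from 1884156 to 1909862 and from 1909912 to 1943864 were 49 bp apart, and each was 1 region in every replicate. The next closest were 168 bp apart at 2531496 on 3L, 270 bp at 10523388 on 3R, 346 bp at 505899 on 3L and 416 bp at 7916622 on 2L, each position being the right end of the left domain. The pair on 3L at 2531496 belonged to the run of 3, which spanned 87.4 kb from 2508351 to 2595744. The pair at 505899 joined domains of 63814 and 69551 bp. Merging combined regions under 1 kb apart raised the number of regions of at least 20 kb from 263 to 352.

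**Figure D5:**
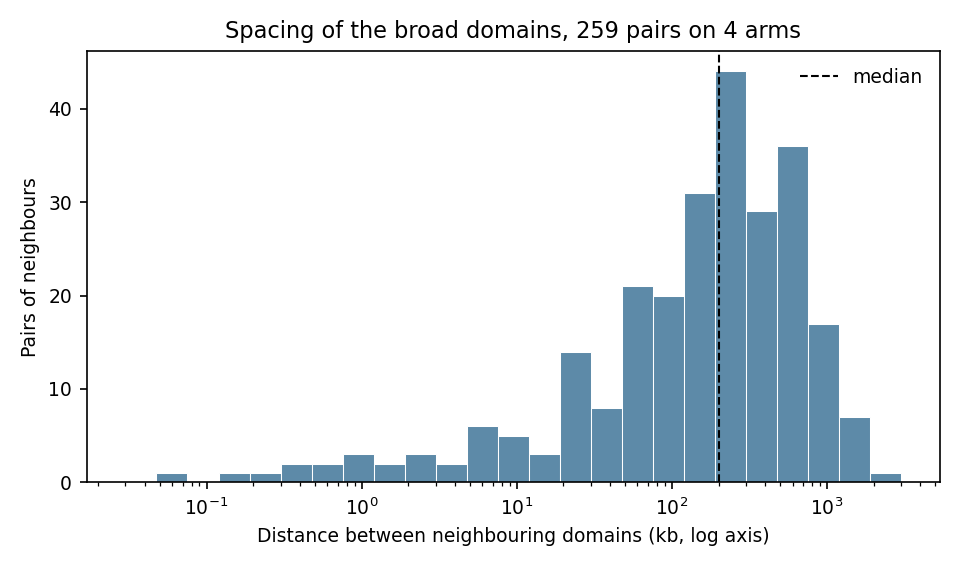
Number of pairs of neighbouring domains by the distance between them (kb, log axis), for 259 pairs on 4 arms. The dashed line marks the median of 202.0 kb, and 26 pairs lie below 10 kb.

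The longest distances between domains were not empty of H2Bub. Between 14690053 and 16601460 on 2L, 1911 kb held no domain but 61 narrower regions, which covered 13.3% of it. On 3R, the 1765 kb from 7774752 to 9540228 held 66 narrower regions over 14.8%, and the 1700 kb from 2273803 to 3974177 held 55 over 15.4%. On X, the 1382 kb from 5119853 to 6501531 held 71 over 23.4%. Over all the sequence outside domains, combined regions covered 23.7%, close to the value of the X stretch and above the other 3. These stretches were picked with their values in view.

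The most isolated domain of each arm was named by its distance to the nearest other domain. It was 896 kb for the widest domain on X at 4997151, 697 kb at 19875084 on 3L, 640 kb at 3974177 on 3R and 608 kb at 16601460 on 2L. The X domain also had a region just 1521 bp away, so isolation from other domains did not mean isolation from H2Bub.

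The arms held domains at similar density. There were 68 on 2L, 65 on 3L, 71 on 3R and 59 on X, or 3.24, 2.88, 2.74 and 2.89 per Mb analysed. They covered 10.7%, 10.6%, 11.1% and 10.3% of those arms, in the same order. Their median widths were 27925.5, 30504, 31274 and 28391 bp. With 1 combined list, these counts have no replicate error and no test was made between arms.

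Domains were also counted along the arms in whole 1 Mb bins from the centromeric end, each in the bin that holds its midpoint. Distal ends too short to fill a bin were left out, and with them a few domains on 3L and 3R. Of 88 bins, 5 held no midpoint, 77 held 1 to 5 and 6 held 6 or 7, with a median of 3. The fullest was 3R from 5000001 to 6000000, with 7. Of the 5, 4 were free of any domain base, on 2L from 15011545, on 3L from 17543558, on 3R from 8000001 and on X from 5422828. The fifth, on 3L from 543558, held the end of the domain from 506246 to 575796. Cut into 3 equal parts from the centromere outwards, the arms held 2.64, 3.07 and 3.07 domains per Mb. The least dense part was the proximal one on 3L (2.00 per Mb) and on 2L (2.86), the distal one on X (2.20) and the middle one on 3R (2.20).

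No difference in division was shown between domains on X and on the autosomal arms. Replicate regions per 10 kb of domain were 0.584, 0.390 and 0.513 on X in replicates 1, 2 and 3, and 0.659, 0.400 and 0.475 on 2L, 3L and 3R together. The difference, X minus autosomal arms, was -0.0156 ± 0.0566 (SD, n = 3) and negative in 2 of 3 replicates (exact permutation p = 0.75). It was 0.0139 without replicate 1 and -0.0425 without replicate 3. Coverage differed by 0.0627 ± 0.597 percentage points (SD, n = 3), exact permutation p = 0.75, and by -0.242 without replicate 1. Of the X domains, 21 of 59 (35.6%) were 1 region in every replicate, and of the autosomal ones 71 of 204 (34.8%).

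The median score was slightly higher for X domains in every replicate. In replicates 1, 2 and 3 the median score over covered bases was 1.20, 1.67 and 1.38 for X domains and 1.16, 1.54 and 1.32 for autosomal ones. The difference was 0.0396, 0.136 and 0.0569, a mean of 0.0774 ± 0.0512 (SD, n = 3), positive in 3 of 3 replicates (exact permutation p = 0.25). Without replicate 2 it was 0.0482. This comparison of scores was not among those planned. X domains also spanned a narrower range, from 0.83 to 1.97 in the combined list, against lowest scores of 0.56 to 0.60 and highest scores of 2.66 to 2.77 on the 3 autosomal arms.

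Regions of at least 20 kb in the replicate lists nearly all overlapped these domains at least in part. All 185 of replicate 1, all 231 of replicate 2 and 208 of the 210 of replicate 3 overlapped a domain. Both exceptions spanned several narrower combined regions, 3 at 11735897 on 3L and 2 at 10546757 on X. They were picked out after their values were seen. The replicate lists may share reads with the combined list, and wide regions meet each other easily. No share for narrower replicate regions is set beside these counts, so they do not measure independent agreement.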

How the data were processed

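The submitters' processing notes name Bowtie 0.12.7, an aligner. The authors deposited 4 lists of enriched regions on FlyBase release 5, per the file headers, with a score for each region. How regions were called and scored, and at what threshold, is stated in no source used here. Read depth is unknown, so no counting interval could be given. Input samples were not analysed here. Groups and replicate numbers came from the sample titles.

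Domains were taken from the combined list by width and position, and replicate regions overlapping them by at least 1 bp were counted as pieces. Covered bases, pieces, breaks and edges were computed with Python 3.11.15, numpy 2.4.6 and pandas 2.3.3. Covered bases, pieces and edges were checked on simulated lists, with domains very close to another left out. Breaks were not part of that check. Differences were tested by exact permutation (two-sided, flipping signs) over 3 replicates or, where stated, over 3 choices of a replicate list. With 3 values such a test cannot go below 0.25, so no difference could pass 0.05. Members, classes and lists were chosen with earlier results of these data known. Regions named follow a rule (the widest, highest and lowest scoring, least covered, most divided, widest unbroken, closest, most isolated and those next to the width minimum), except where stated. The gene table at hand is on release 6 and was not used. If replicates were technical, p-values measure only that spread.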

Additional observations from a re-analysis of the deposited data

Results flagged for a closer look

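On the same 4 arms, 9 combined regions of at least 20 kb reached into the 2 Mb nearest the centromere and so lay outside the description above, a signal in data that the comparisons leave out. Of these, 3R held 5, X held 3, 2L held 1 and 3L held 0. Replicates covered 89.5% ± 5.32 of their bases in 2.15 ± 0.128 regions each (SD, n = 3). The region on 2L from 20980478 to 21021344, which straddles the limit, was 1 region in every replicate. The region on X from 21985095 to 22013672 was covered over 92.3%, 98.2% and 8.64% in replicates 1, 2 and 3.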

How the results depend on the processing

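Of 80 values of the 6 main results under 14 alternatives, 70 kept their direction or moved by less than the spread between replicates. The mean number of pieces per domain, 1.85, moved to 1.27 with the regions scoring at or above their list's median, to 2.59 with combined regions under 1 kb apart merged and to 1.28 with replicate regions under 1 kb apart merged, and lay between 1.61 and 2.06 when a replicate was left out. The difference in pieces between X and autosomal arms turned to 0.0609 with the higher-scoring regions, to 0.0246 with combined regions merged and lay between -0.0425 and 0.0139 when a replicate was left out. The spacing difference, -66.0 bp, lay between -105 and -17 bp when a replicate was left out, and turned to 945 bp with the higher-scoring regions, 315 bp at a minimum of 30 kb, 12 bp with the proximal 3 Mb left out and 294.7 bp with replicate regions merged. It has no value for members chosen in replicate lists or where only members or the overlap rule change. The break difference by score stayed positive, from 0.0965 to 0.604 breaks per 10 kb, and was 0.208 without replicate 1. The cause was not tested. A minimum of 15 kb gave 402 domains and 30 kb gave 127, and domains that were 1 region in every replicate numbered 142, 46 and, with replicate regions merged, 156. The midpoint rule, and leaving out domains covered under 80% in some replicate, were added after seeing the data. No paired analysis was possible because no list was analysed here for the inputs that share replicate numbers with the ChIP samples.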
